A study of Mus musculus with 33 samples.

Results

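The oxidative phosphorylation genes of the liver were followed as 92 rows of a gene count matrix of 19169 genes. A row was taken when its gene name was that of a subunit of complex I (Nduf followed by a, b, c, s or v and a digit), II (Sdha to Sdhd), III (Uqcr), IV (Cox4 to Cox8) or V (Atp5), or when it lay on the mitochondrial chromosome, with at least 10 counts over the 33 libraries. This gave 82 nuclear genes (37 of complex I, 4 of complex II, 8 of complex III, 16 of complex IV and 17 of complex V) and 10 rows of the mitochondrial chromosome, called chrM rows here. Expression values played no part beyond the minimum count.

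Polyadenylated RNA of frozen liver was sequenced from wild-type (WT) mice and from knock-in (KI) mice of the genotype Nlrp3A350V/+CreT, in which tamoxifen switches on a mutant allele of the inflammasome sensor Nlrp3. Each genotype ate control chow with placebo or a diet containing the drug GS-444217, which blocks the stress kinase ASK1 (ASK1i), for 6 weeks. The groups are called WT control (10 libraries, of which 7 are female), WT ASK1i (8, with 4 female), KI control (5, with 1 female) and KI ASK1i (10, with 5 female). The labels give neither the age of the mice, nor the tissues in which the Cre acts, nor whether WT mice received tamoxifen, nor whether the libraries come from separate animals; the p-values below therefore describe the spread among the libraries, which may be technical in part.

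Oxidative phosphorylation is how mitochondria turn food into ATP: complexes I and II pass electrons from NADH and succinate to ubiquinone, complex III passes them to cytochrome c and complex IV to oxygen, and complex V (ATP synthase) makes ATP from the proton gradient that I, III and IV build. Complexes I, III, IV and V combine subunits made from nuclear genes with a few made from mitochondrial DNA, whereas complex II is entirely nuclear. Hepatocytes are rich in mitochondria and use them for fatty acid oxidation, urea synthesis and gluconeogenesis as well as for ATP.

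Library totals lay between 28099676 counts (a WT control) and 40008118 counts (a WT ASK1i), and those of KI control between 33754744 and 38584260. Levels are given as CPM, the counts of a gene scaled to library size. Nlrp3 itself was at 1.62 to 4.96 CPM in WT control against 7.87 to 15.6 in KI control. On the ASK1i diet it was at 2.38 to 3.88 CPM in WT against 2.10 to 11.0 in KI. One library stood apart: the library labelled KI ASK1i replicate 5 had the lowest Nlrp3 of its group. Its summed markers were 116162 CPM for hepatocytes, 6.67 for neutrophils, 236 for monocytes and macrophages and 531 for Kupffer cells. All 4 sums lay within the ranges of WT ASK1i. This library was kept in every value unless stated. For the genotype comparison on the ASK1i diet, the counts called and the medians are also given without it. Ranges and counts of genes without overlap include it. Titles carry an L code of unstated meaning, and no L code holds libraries of both WT control and KI control, so the code and the genotype cannot be told apart on control chow. Hepatocyte markers were present in every library, with a summed level of 116437 to 140047 CPM in WT control and 38486 to 59804 in KI control (6 of 8 fell), and none of the 8 was at 0. Neutrophil markers summed to 3.88 to 18.2 CPM in WT control and 679 to 3795 in KI control (10 of 10 rose), monocyte and macrophage markers to 162 to 391 and 912 to 1418 (8 of 8 rose), and Kupffer cell markers to 309 to 944 and 1464 to 2025 (6 of 6 rose). Over all genes tested, 28.9% fell and 27.8% rose between these 2 groups. In whole liver, fewer hepatocytes and less RNA per hepatocyte cannot be told apart. The part of these markers in the results below was not tested.

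Promoters were read from RefSeq (GRCm38.p6) for 68 of the 82 nuclear genes, as the 250 bases before to 50 after the start. Nuclear OXPHOS genes are textbook targets of the factors NRF1, GABPA, YY1 and ERRA, so 4 short words were searched on both strands. The NRF1 core GCATGCGC was in 10 of 68 windows (14.7%, against 3.05% of all 27025 gene windows), the YY1 word AAGATGGC in 11 (16.2% against 3.19%), the GABPA word CCGGAAGT in 5 (7.35% against 4.31%) and the ERRA word TCAAGGTCA in 2 (2.94% against 0.466%). A match is a description of letters and not a bound site. The stretches below were chosen after the expression values were seen. The first 4 put side by side genes with the same letters whose transcripts differed in how far they fell, and Sdhb and Atp5g3 carry other matches. All stretches lie before the start. Capitals mark the matches, which in the first 4 are NRF1 cores of both strands overlapping in one palindrome, in Sdhb 1 NRF1 core, and in Atp5g3 the ERRA word of the other strand.
Atp5k, chr5:108434410-108434479, minus strand: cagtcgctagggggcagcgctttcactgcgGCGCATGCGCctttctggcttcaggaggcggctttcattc
Atp5g2, chr15:102671050-102671119, minus strand: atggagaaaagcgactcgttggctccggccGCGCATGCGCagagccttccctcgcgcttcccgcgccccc
Cox6a1, chr5:115349081-115349150, minus strand: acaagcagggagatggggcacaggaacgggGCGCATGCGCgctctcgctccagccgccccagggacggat
Ndufa11, chr17:56717672-56717741, plus strand: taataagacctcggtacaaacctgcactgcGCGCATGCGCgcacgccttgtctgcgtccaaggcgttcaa
Sdhb, chr4:140961187-140961254, plus strand: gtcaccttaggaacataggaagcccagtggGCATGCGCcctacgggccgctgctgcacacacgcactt
Atp5g3, chr2:73911340-73911408, minus strand: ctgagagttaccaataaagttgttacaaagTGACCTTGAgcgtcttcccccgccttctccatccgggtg

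Per length, 7 of the 10 chrM rows lay above every nuclear OXPHOS gene in WT control liver, and AK140265, BC071253 and GU332589 did not. The row DQ539915, which covers mt-Co1, the catalytic subunit of complex IV, had 20788 ± 2757 CPM per kb (SD, n = 10). Atp5b, the catalytic beta subunit of ATP synthase and the highest nuclear member, had 585 ± 27.4 CPM per kb. The median over nuclear members was 124 CPM per kb and over chrM rows 5484. Complex IV forms typical of other organs were close to absent: Cox4i2 (lung), Cox6a2 and Cox8b (heart and muscle) and Cox6b2 (testis) lay between 0.0196 and 0.267 CPM per kb and did not pass the count filter, which left 88 members (78 nuclear, 10 chrM) for testing.

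**Figure D1:**
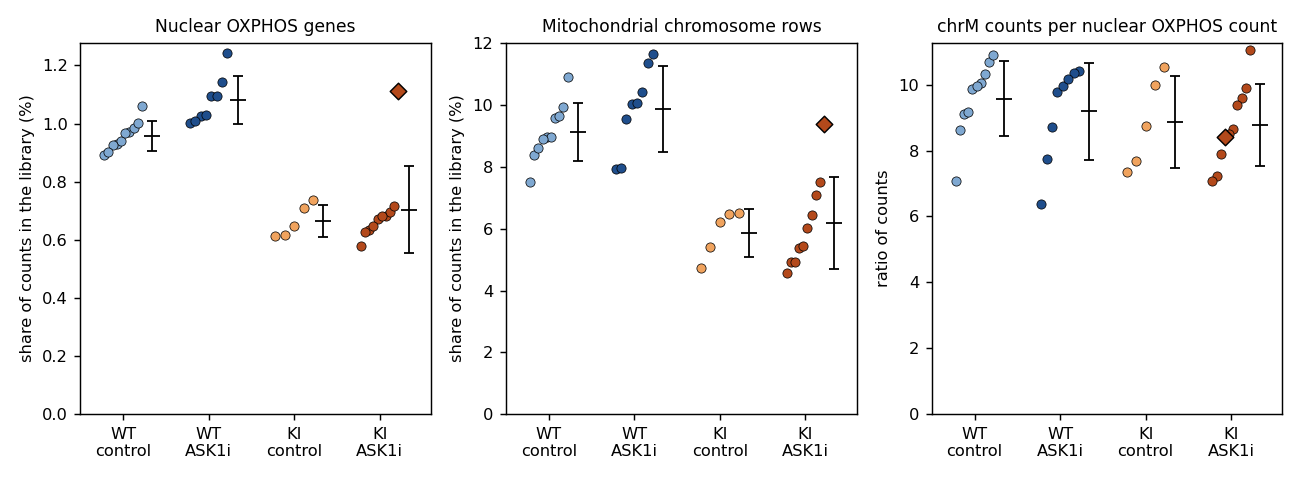
Share of each library's counts held by the 82 nuclear OXPHOS genes (left, percent) and by the 10 chrM rows (middle, percent), and chrM counts per nuclear OXPHOS count (right), by group. Points are libraries, black bars are the mean ± SD and the diamond is KI ASK1i replicate 5. Both shares were lower in KI, with medians of 0.953% and 0.648% for nuclear genes on control chow, whereas the ratio overlapped between all groups.

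Summed over their rows, nuclear and mitochondrial OXPHOS RNA were both lower in KI liver, and by similar proportions of all counts. Row by row the median log2 fold changes lay further apart, at -0.62 for nuclear genes and -0.92 for chrM rows on control chow. On the ASK1i diet they were -0.62 and -0.75. The nuclear genes held 0.891% to 1.06% of counts in WT control (median 0.953%) and 0.614% to 0.737% in KI control (median 0.648%), without overlap. The chrM rows held 7.51% to 10.9% (median 8.96%) and 4.71% to 6.51% (median 6.21%), also without overlap. On the ASK1i diet the nuclear share was 1.00% to 1.24% in WT and 0.580% to 1.11% in KI, and the chrM share 7.92% to 11.7% and 4.58% to 9.37%. The highest KI values there, 1.11% and 9.37%, were both from replicate 5, and the next KI nuclear share was 0.716%. The number of chrM counts per nuclear OXPHOS count had medians of 9.90 in WT control, 9.86 in WT ASK1i, 8.73 in KI control and 8.59 in KI ASK1i, and all 4 ranges overlapped (6.37 to 11.0 in all). Transcripts of Alb (serum albumin) moved further, from a median of 10.3% of counts in WT control to 3.20% in KI control.

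The first comparison sets KI against WT on control chow, where the L code cannot be told apart from the genotype. Of the 78 nuclear genes tested, 74 fell and 0 rose in KI control against WT control (edgeR quasi-likelihood test, Benjamini-Hochberg adjusted p under 0.05 over all 14934 genes), where 28.9% of all genes fell and 27.8% rose. Their median log2 fold change was -0.62 (-34.8%), against -0.03 over all genes. In 65 of the 78, all 5 KI libraries lay below all 10 WT libraries, which was so for 12.8% of all genes, and in 72 all or all but 1 did (18.6% of all genes). Of the 10 chrM rows, 8 fell, with a median of -0.92 (-47.2%), and in 5 the groups did not overlap. The 3 of the 8 that overlapped were Cox2, AK018753 and BC071253. The medians of the 5 nuclear complexes lay close together, at -0.62 for I, III and IV, -0.59 for V and -0.83 for the 4 genes of complex II.

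**Figure D2:**
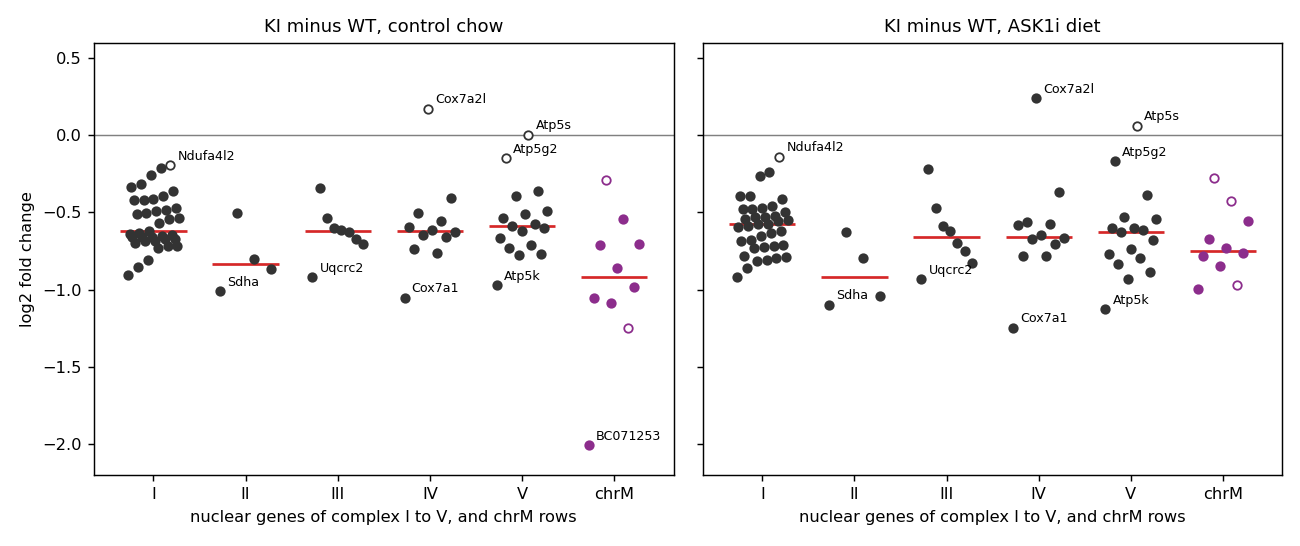
Log2 fold change of KI against WT on control chow (left) and on the ASK1i diet (right) for each tested member, by nuclear complex and for the chrM rows (purple). Filled points passed an adjusted p of 0.05, open points did not, and red lines are medians. All but Cox7a2l and Atp5s lie below 0 in both panels.

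Complex I, which oxidises NADH, fell almost as a whole: 36 of 37 genes on control chow and 36 of 37 on the ASK1i diet. Ndufa9, an accessory subunit near the ubiquinone site, had 95.1 to 113 CPM in WT control (median 104) and 62.0, 62.5, 62.6, 60.0 and 63.1 in KI control. The 5 KI libraries lay within a few CPM of each other and far below WT (log2 fold change -0.73, SE 0.10, edgeR adjusted p 3.92e-07). Ndufs1, the large iron-sulphur subunit of the NADH module, had medians of 128 CPM in WT control and 71.9 in KI control (-0.85, SE 0.13, adjusted p 2.57e-06). Ndufv1, which binds FMN and takes electrons from NADH, went from a median of 130 to 71.3 CPM (-0.81, adjusted p 4.91e-06). Ndufa4, named for complex I but now placed in complex IV, fell too (-0.63). Its hypoxia-linked paralogue Ndufa4l2 was scarce, with 0.422 to 1.22 CPM in WT control and 0.417 to 0.774 in KI control, and the groups overlapped (-0.20, SE 0.28, adjusted p 0.572). The smallest falls that passed were those of Ndufa2 (-0.21) and Ndufa7 (-0.26).

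Complex II, the succinate dehydrogenase shared by the respiratory chain and the TCA cycle, had all 4 genes lower. Sdha, the flavoprotein that oxidises succinate, had 404 to 548 CPM in WT control (median 441) and 188, 210, 248, 227 and 257 in KI control. Every KI control library lay below every WT control library, at about a halving (-1.01, SE 0.15, adjusted p 1.42e-06). Sdhb, the iron-sulphur subunit, fell by 0.86 (adjusted p 4.61e-06). The 2 membrane anchors fell by 0.50 (Sdhc) and 0.80 (Sdhd). Sdhc was the smallest change of the 4, with 113 to 142 CPM in WT control and 80.6 to 99.1 in KI control.

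Complex III, which passes electrons from ubiquinol to cytochrome c, had all 8 Uqcr genes lower. The core subunit Uqcrc2 had 227 to 270 CPM in WT control (median 248) and 115, 129, 130, 122 and 137 in KI control (-0.92, SE 0.12, adjusted p 4.66e-07). Uqcrfs1, the Rieske iron-sulphur protein, fell by 0.71 and the other core subunit Uqcrc1 by 0.67. The smallest fall was that of Uqcrq, a small subunit bound to cytochrome b (-0.34, SE 0.11, adjusted p 0.00823), in which 4 of 5 KI control libraries lay below all WT control libraries. Cyc1, the cytochrome c1 of the same complex, and Cycs, the soluble electron carrier, were not matched by the name rule and fell as well (-0.83 and -0.65).

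Complex IV, cytochrome c oxidase, had 11 of 12 tested nuclear genes lower on control chow. Cox7c (-0.77), Cox6a1 (-0.74) and Cox4i1 (-0.66) had the smallest p. Cox6a1, the form of subunit 6a used by liver, had 112 to 146 CPM in WT control and 64.0 to 75.7 in KI control. Cox8a fell less (-0.41, adjusted p 0.00270). Cox7a1, the heart and muscle form of subunit 7a, was scarce, with 0.491 to 1.22 CPM in WT control and 0.193 to 0.699 in KI control. Its fall (-1.05, SE 0.40, adjusted p 0.0244) was the steepest of the nuclear members but rests on few counts, and it did not pass with total-count scaling (adjusted p 0.0508) or with the L code in the model (0.128). Summed markers of striated muscle were 0.231 to 1.60 CPM in WT control and 0.325 to 1.10 in KI control.

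One complex IV relative went the other way. Cox7a2l, which resembles subunit 7a and joins complex III to complex IV in supercomplexes, had 95.3 to 116 CPM in WT control (median 110) and 133, 118, 133, 119 and 102 in KI control. In 4 of 5 KI control libraries it lay above all WT control libraries, but the difference did not pass (0.17, SE 0.09, adjusted p 0.0943). It did pass with total-count scaling (0.30, adjusted p 0.0100), with DESeq2 (0.20, adjusted p 0.0429), in the 2 groups alone (0.19, adjusted p 0.0252) and without KI ASK1i replicate 4 or 6. On the ASK1i diet it was the 1 nuclear member that rose (0.24, SE 0.07, edgeR adjusted p 0.00557), from 88.6 to 126 CPM in WT to 93.2 to 145 in KI, with 3 of 10 KI libraries above all WT libraries. That call did not pass in numbered titles only (adjusted p 0.0710) or in female libraries only (adjusted p 0.295). Cox7a2, the ubiquitous subunit 7a, fell on both diets (-0.63 and -0.58).

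Complex V, ATP synthase, had 15 of 17 Atp5 genes lower on control chow. All 5 subunits of the F1 head fell, from -0.39 (Atp5e) to -0.77 (Atp5b), and the head's alpha subunit Atp5a1 went from 843 to 1016 CPM in WT control to 475 to 586 in KI control (-0.73, adjusted p 7.63e-06). Atp5k, the small membrane subunit e that helps ATP synthase form dimers, had 50.9 to 66.2 CPM in WT control (median 56.1) and 24.7, 28.8, 31.1, 26.0 and 31.3 in KI control. Its groups were far apart and its fall was the steepest of complex V (-0.97, SE 0.14, adjusted p 7.78e-07). The 3 genes that encode the same c subunit of the proton-driven ring did not fall equally. Atp5g3, the most abundant, went from 202 to 251 CPM to 117 to 159 (-0.71, adjusted p 1.47e-05). Atp5g1 went from 86.2 to 116 CPM to 58.6 to 75.6 (-0.54, adjusted p 0.000512). Atp5g2 went from 81.6 to 101 CPM to 67.7 to 91.1, with the groups overlapping (-0.15, SE 0.08, adjusted p 0.137). Atp5s, named for coupling factor B and not a structural subunit, did not differ detectably (0.00, SE 0.14, adjusted p 0.982). Atp5sl, now called Dmac2 and known as an assembly factor of complex I, fell by 0.78.

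Set beside their promoters, Atp5k and Atp5g2 carry the same palindrome of overlapping NRF1 cores, and their log2 fold changes were -0.97 and -0.15. Ndufa11 and Cox6a1 carry it too, at -0.39 and -0.74. Over the tested genes the median was -0.62 for the 10 with the NRF1 core and -0.61 for the 56 without, -0.62 with and without the YY1 word, and -0.58 against -0.62 for the GABPA word. The 2 genes with the ERRA word had a median of -0.75 against -0.61 for the rest.

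**Figure D3:**
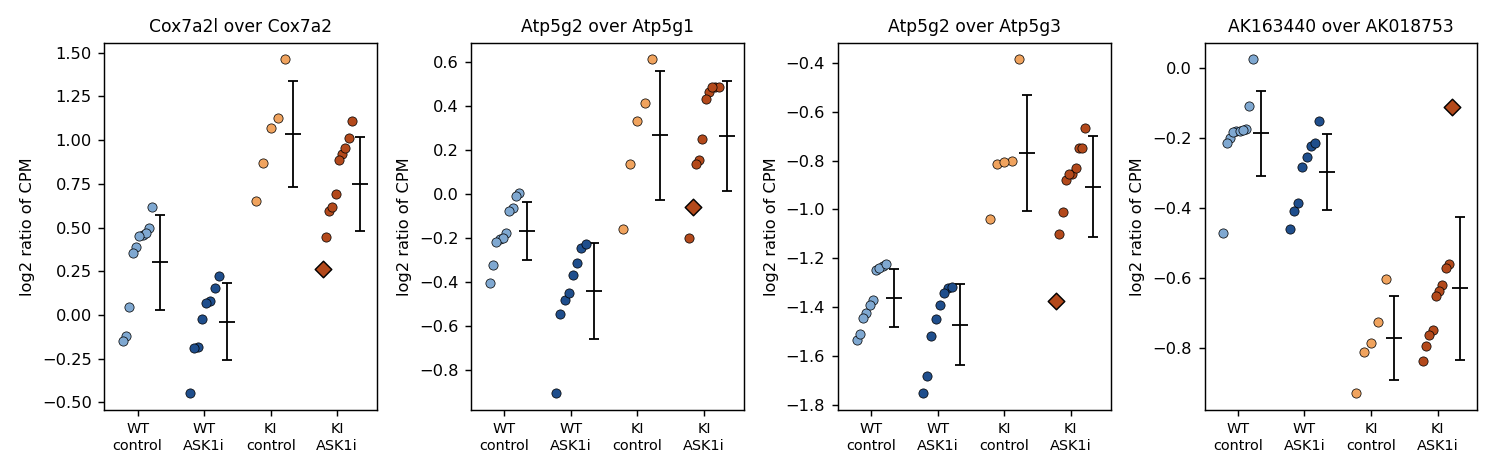
Log2 ratio of the CPM of 2 rows within each library, by group: Cox7a2l over Cox7a2, Atp5g2 over Atp5g1, Atp5g2 over Atp5g3, and AK163440 (ND2) over AK018753 (16S rRNA and ND1). Points are libraries, black bars are the mean ± SD and the diamond is KI ASK1i replicate 5. The group means of the first 3 ratios were higher and that of the fourth lower in KI control than in WT control, with mean Cox7a2l over Cox7a2 of 0.30 in WT control and 1.04 in KI control.

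Ratios within a library do not depend on the scaling between libraries. The pairs were picked after the values were seen, so the ratios are a description with no test. The log2 ratio of Cox7a2l to Cox7a2 was 0.30 ± 0.27 in WT control (SD, n = 10) and 1.04 ± 0.30 in KI control (n = 5), and on the ASK1i diet -0.04 ± 0.22 (n = 8) and 0.75 ± 0.27 (n = 10). On each diet every KI library lay above every WT library. The log2 ratio of Atp5g2 to Atp5g3 was -1.36 ± 0.12 in WT control and -0.77 ± 0.24 in KI control, again without overlap. On the ASK1i diet it was -1.47 ± 0.17 in WT and -0.91 ± 0.21 in KI, with replicate 5 the 1 KI library inside the WT range. Atp5g2 to Atp5g1 went from -0.17 ± 0.13 to 0.27 ± 0.29 on control chow, with 4 of 5 KI libraries above the WT libraries and 1 among them, and from -0.44 ± 0.22 to 0.26 ± 0.25 on the ASK1i diet, where all 10 KI libraries lay above the WT libraries.

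The mitochondrial chromosome is transcribed from both strands as long precursors, which are cut at the tRNAs into rRNAs, tRNAs and the messages of subunits of complexes I, III, IV and V. The 10 rows are named after clones or old symbols, with 1-based mm10 positions on chrM. AK140265 (70 to 852) covers part of the 12S rRNA gene mt-Rnr1, AK018753 (1149 to 3703) most of the 16S rRNA gene mt-Rnr2 with mt-Tl1 and mt-Nd1, and GU332589 (1094 to 2681) is a clone over mt-Rnr2. AK163440 (3845 to 4925) covers mt-Nd2, DQ539915 (5327 to 6938) mt-Co1, Cox2 (7010 to 7699) mt-Co2 and Atpase6 (7766 to 8607) mt-Atp8 and mt-Atp6. Gm10222 (9876 to 11542) covers mt-Nd4l and mt-Nd4, BC071253 (11720 to 14070) mt-Nd5 and, on the minus strand, mt-Nd6, and Cytb (12406 to 15288) part of mt-Nd5, mt-Nd6 and mt-Cytb. No chrM row of the matrix covers mt-Co3 or mt-Nd3. BC071253 and Cytb overlap, as do GU332589 and AK018753. Over all libraries the first pair had 46603 and 13554914 counts and the second 727 and 7093175, whole in every library. How reads in the overlaps were assigned is not given. Use of strand in the counting is not given in the sources used here.

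**Figure D4:**
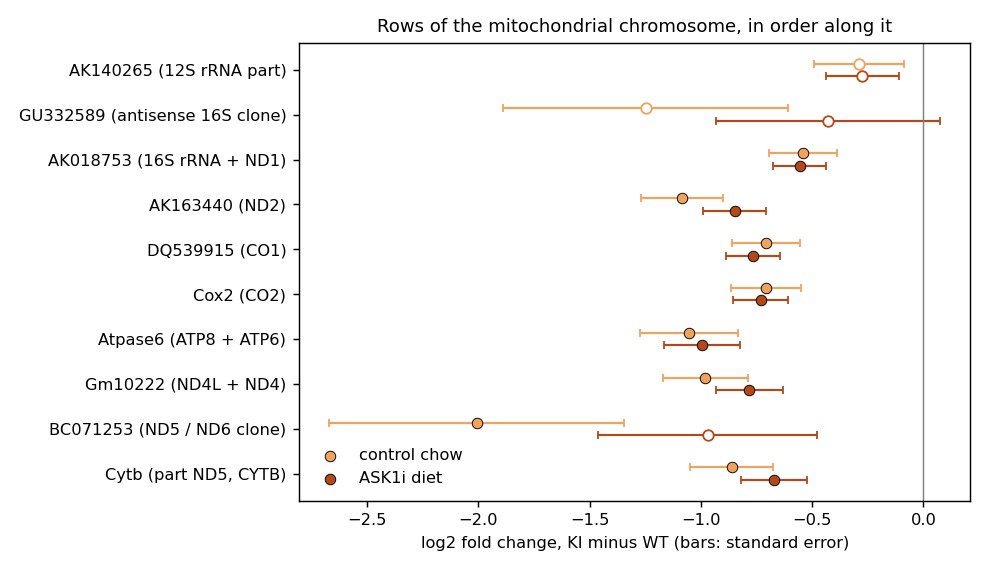
Log2 fold change of KI against WT for the 10 chrM rows, in order along the chromosome from top to bottom, on control chow (light) and on the ASK1i diet (dark). Bars are the standard error, filled points passed an adjusted p of 0.05 and open points did not. All 20 values lie below 0, from -0.27 for AK140265 on the ASK1i diet to -2.01 for BC071253 on control chow.

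The rows over mt-Nd2, mt-Co1, mt-Co2, mt-Atp8 and mt-Atp6, mt-Nd4l and mt-Nd4, and mt-Cytb all fell on both diets. AK163440 (ND2 of complex I) had 4409 to 7409 CPM in WT control and 2238, 2994, 2220, 3002 and 3521 in KI control (-1.08, SE 0.18, adjusted p 1.12e-05). Atpase6 (2 membrane subunits of ATP synthase) went from 8136 to 15324 CPM to 4344 to 7649 (-1.05, SE 0.22, adjusted p 0.000188), and Gm10222 (ND4L and ND4) from 6996 to 11345 to 3786 to 6222 (-0.98, adjusted p 7.15e-05). In these 3 rows the control groups did not overlap. DQ539915 (CO1), the most abundant, went from 29588 to 44818 CPM to 17418 to 23797 (-0.71, adjusted p 0.000261). Cox2 (CO2) fell by 0.71 and Cytb by 0.86, and AK018753 (16S rRNA with ND1) by 0.54 (adjusted p 0.00354). The 12S row AK140265 did not pass (-0.29, SE 0.20, adjusted p 0.227), nor did GU332589, at 0.405 to 1.98 CPM in WT control (-1.25, SE 0.64, adjusted p 0.0960). BC071253 was scarce and spread widely, from 17.7 to 95.4 CPM in WT control and 6.99 to 19.4 in KI control (-2.01, SE 0.66, adjusted p 0.0110). Within libraries the log2 ratio of AK163440 to AK018753 was -0.19 ± 0.12 in WT control and -0.77 ± 0.12 in KI control with no overlap, and -0.30 ± 0.11 and -0.63 ± 0.20 on the ASK1i diet, where replicate 5 alone (-0.11) lay above WT. DQ539915 to Cytb overlapped between genotypes on both diets (1.11 ± 0.17 and 1.31 ± 0.24 on control chow).

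The chrM falls on control chow depended on the L code more than the nuclear falls did. With the L code in the model in place of the title set, 1 chrM row (AK163440) and 64 nuclear genes fell on control chow, while the share of all genes called in either direction went from 56.7% to 34.2%. The chrM median was then -0.45 and the nuclear median -0.59. DQ539915 was then at -0.48 (adjusted p 0.0595), Gm10222 at -0.58 (adjusted p 0.0600) and Atpase6 at -0.57 (adjusted p 0.110). As mean log2 CPM over the chrM rows relative to WT control, the 4 KI control libraries of L7 lay at -1.15 on average and the 1 of L1 at -0.43. WT ASK1i libraries lay at -0.29 in L7 (2 libraries) and 0.15 in L1 (2 libraries). In males alone 5 chrM rows fell, with a median of -0.65, and 71 of 78 nuclear genes fell, where 41.9% of all genes were called in either direction. In females alone KI control has 1 library, and fewer nuclear genes and fewer of all genes passed than in the main fit.

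The second genotype comparison sets KI against WT on the ASK1i diet. Of 78 nuclear genes 75 fell, where 28.8% of all genes fell, and 1 (Cox7a2l) rose, where 30.3% did, with a median of -0.62 (-35.0%) against 0.01 over all genes. Of the chrM rows 7 of 10 fell (median -0.75), and BC071253 (-0.97, SE 0.49), GU332589 (-0.43, SE 0.50) and AK140265 (-0.27, SE 0.17) did not pass (adjusted p 0.0912, 0.480 and 0.155). The medians by complex were -0.58 for I, -0.92 for II, -0.66 for III and IV and -0.63 for V. In 9 nuclear genes all 10 KI libraries lay below all 8 WT libraries (3.91% of all genes), among them Sdha, Sdhb, Sdhc, Ndufa9, Atp5k and Atp5g1, and in 65 all or all but 1 did (12.9% of all genes). Of the 10 chrM rows 0 had all KI libraries below all WT libraries, and 3 had all or all but 1. Without KI ASK1i replicate 5 the nuclear median was -0.73 and the chrM median -0.85, with the same 75 and 1 nuclear counts and 9 chrM rows lower. Within L1 (2 WT and 4 KI libraries) the genotype difference in mean log2 CPM was -0.82 for nuclear and -0.95 for chrM genes, and within L7 (2 WT, 1 KI) -0.85 and -1.12. Beside these falls, hepatocyte markers summed to 112796 to 150845 CPM in WT ASK1i and 38891 to 116162 in KI ASK1i (5 of 8 fell, 1 rose). Neutrophil markers summed to 2.26 to 7.24 and 6.67 to 4958 (10 of 10 rose). The KI ends of 116162 and 6.67 were both replicate 5. Without it the KI ranges were 38891 to 72088 and 676 to 4958. The part of these markers in the result was not tested.

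Single genes were close to their control-chow values. Atp5k had 60.7 to 82.6 CPM in WT ASK1i and 25.4 to 56.9 in KI ASK1i (-1.13, SE 0.11, adjusted p 1.66e-09), and even replicate 5, the highest KI library, lay below WT. Sdha was lower by 1.10 (SE 0.12, adjusted p 7.07e-09), with 475 to 643 CPM in WT and 191 to 453 in KI. Uqcrc2 was at -0.93 (adjusted p 7.07e-09), Ndufs1 at -0.92 (1.41e-08), Cox6a1 at -0.78 (4.26e-07) and Cox6b1 at -0.67 (1.13e-07). Atp5g2 passed narrowly (-0.17, SE 0.07, edgeR adjusted p 0.0390), and also with limma-voom, with group only and with the replicate block. It did not pass with the other scalings, filters and models, in numbered titles only, in the 2 groups alone or in either sex alone. Among these were DESeq2 (-0.15, adjusted p 0.0574) and, in edgeR, RLE scaling (adjusted p 0.0664), total-count scaling (-0.08, adjusted p 0.345) and males only (-0.02, adjusted p 0.896). Atpase6 went from 8404 to 16679 CPM in WT ASK1i to 3964 to 12049 in KI ASK1i (-49.8%, adjusted p 1.25e-05), where the highest KI library was replicate 5.

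**Figure D5:**
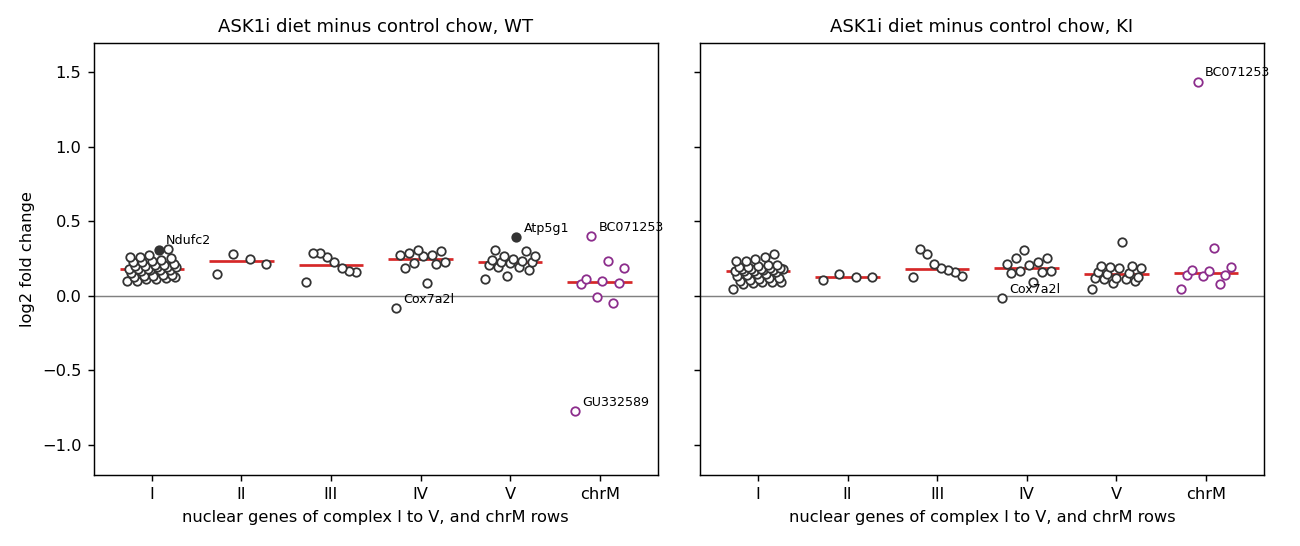
Log2 fold change of the ASK1i diet against control chow in WT (left) and KI (right) for each tested member, by nuclear complex and for the chrM rows (purple). Filled points passed an adjusted p of 0.05, open points did not, and red lines are medians. Nearly all nuclear points lie a little above 0, and 2 (Ndufc2 and Atp5g1, in WT) passed.

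The diet comparisons ask whether the inhibitor moved these genes within a genotype. In WT, 2 nuclear genes rose and 0 fell, where 1.13% of all genes rose and 0.268% fell. Ndufc2, a membrane-arm subunit of complex I, had 35.7 to 47.4 CPM in WT control and 44.8 to 60.5 in WT ASK1i (0.31, SE 0.08, edgeR adjusted p 0.0320), and 6 of 8 libraries lay above all WT control libraries. Atp5g1 had 86.2 to 116 and 116 to 169 CPM (0.39, SE 0.10, edgeR adjusted p 0.0402), with 7 of 8 above. Log2 fold changes were above 0 in 77 of 78 nuclear genes (49.5% of all genes), with a median of 0.21, and in 7 of 10 chrM rows, with a median of 0.09. At an unadjusted p under 0.05 there were 43 nuclear genes, all with higher values (8.4% of all genes were higher and 5.52% lower by that measure), and 0 chrM rows. The number of nuclear genes that rose was 0 without WT ASK1i replicate 5, 1P or 2P or WT control replicate 1P, 20 without KI ASK1i replicate 5, 35 with the 2 groups alone and 5 with DESeq2. The share of all genes called in either direction was 1.4%, and in those last 3 settings 2.51%, 5.11% and 2.84%. The nuclear median was 0.46 in females and 0.01 in males, and 0 nuclear genes passed in either sex alone. Within L6 (4 libraries a group) the nuclear difference in mean log2 CPM was 0.14, but the control libraries there hold 1 male and the ASK1i libraries 3. That control male (0.16 relative to the WT control mean) lay above the 3 ASK1i males (0.07 to 0.11). Hepatocyte markers summed to 116437 to 140047 CPM in WT control and 112796 to 150845 in WT ASK1i. Of the 8 markers 0 passed, where 1.4% of all genes did, and their part in the result was not tested.

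In KI, 0 nuclear genes and 0 chrM rows passed in edgeR, where 8 of all 14934 genes did (0.0536%), and DESeq2 also called 0. At an unadjusted p under 0.05 there were 10 nuclear genes and 1 chrM row, all with higher values (5.73% of all genes were higher and 4.58% lower). Log2 fold changes were above 0 in 77 of 78 nuclear genes and 10 of 10 chrM rows (55.9% of all genes), with medians of 0.17 and 0.16. Without KI ASK1i replicate 5 these medians were 0.08 and 0.06. The smallest nuclear p belonged to Cox8a (0.31, SE 0.11, adjusted p 0.429), Atp5s (0.36, SE 0.14, adjusted p 0.429) and Uqcrq (0.28, SE 0.11, adjusted p 0.429). BC071253 differed most in size, from 6.99 to 19.4 CPM in KI control to 3.94 to 97.2 in KI ASK1i, and the groups overlapped (1.44, SE 0.62, adjusted p 0.461). With the L code in the model the chrM median turned to -0.23. The 2 diet comparisons and the 2 genotype comparisons share their control or treated libraries and are not independent.

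Whether the genotype difference itself changed with the diet was tested as an interaction. In edgeR 0 of 78 nuclear genes and 0 of 10 chrM rows passed, as did 0 of all 14934 genes, and 1 nuclear gene (Atp5g1) and 0 chrM rows had an unadjusted p under 0.05. The difference for Atp5g1 was -0.34 (SE 0.16, adjusted p 0.572), for Ndufc2 -0.22 (SE 0.12, adjusted p 0.638) and for BC071253 1.04 (SE 0.80, adjusted p 0.739). The nuclear median was -0.04 and the chrM median 0.12.

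The wider mitochondrial programme was described from lists chosen with earlier results of these data known, with genotype values on control chow first and on the ASK1i diet second. Over all genes 28.9% fell and 27.8% rose on control chow, and 28.8% fell and 30.3% rose on the ASK1i diet. Of 14 TCA cycle genes 12 fell and 0 rose on each diet (medians -0.64 and -0.71). Sucla2 and Suclg1, subunits of succinyl-CoA synthetase, fell by 0.97 and 0.93 on control chow. Idh2, the NADPH-making isocitrate dehydrogenase, fell by 0.66 and 1.09. Of 8 dehydrogenases and carriers that feed ubiquinone, 7 and 8 fell, among them Etfa (-0.89 and -0.92), the electron transfer flavoprotein of fatty acid oxidation. Of 13 genes of coenzyme Q synthesis 9 fell and 1 rose on each diet. The one that rose was Adck4 (1.00 and 1.45), a kinase-like protein of that pathway.

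Of 23 genes of mitochondrial transcription and RNA handling 21 and 20 fell (28.9% and 28.8% of all genes). Tfam, which packages mitochondrial DNA and starts its transcription, had 66.4 to 99.3 CPM in WT control and 42.4 to 49.4 in KI control (-0.81, SE 0.11, adjusted p 3.74e-07), and fell by 0.85 on the ASK1i diet. Polrmt, the mitochondrial RNA polymerase, fell by 0.72 and 0.48. Of 9 genes of mitochondrial DNA replication 6 and 8 fell. Among 11 regulators of mitochondrial biogenesis 5 and 6 fell and 0 and 2 rose. Sirt3, the main mitochondrial deacetylase, fell by 1.19 and 1.11, and Gabpa, whose DNA word was searched above, by 0.59 and 0.47. Esrrg, an estrogen-related receptor that drives OXPHOS genes in heart, had 2.23 to 9.14 CPM in WT control and at most 0.675 in KI control, with 1 library at 0 (-3.47, SE 0.70, adjusted p 0.000117); it was chosen after its values were seen. The coactivator Ppargc1a did not pass on either diet (0.44, adjusted p 0.0756, and -0.05, adjusted p 0.825). Nrf1 was at 0.16 (adjusted p 0.0637) on control chow and rose by 0.22 on the ASK1i diet (adjusted p 0.00288).

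Assembly, translation and import were described in the same way, again beside 28.9% and 28.8% of all genes that fell. Of 76 mitochondrial ribosomal protein genes 48 fell and 3 rose on control chow (median -0.26), and 48 fell and 6 rose on the ASK1i diet. Of 16 assembly factors of complex I 10 and 12 fell, with Ndufaf6 at -1.11 and -1.28, and of 18 of complex IV 12 and 13 fell and 0 and 1 rose, with the copper chaperone Sco2 at -1.08 and -0.86. Of 4 complex II factors 1 and 3 fell, the former no larger a share than over all genes, and of 6 complex III factors 4 and 6. Of 15 import genes 13 fell on each diet and 1 (Tomm20) rose on the ASK1i diet, with the presequence protease subunit Pmpcb at -1.09 and -1.10. Nnt, the proton-driven transhydrogenase of the inner membrane, fell by 0.91 and 1.08.

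Of 10 genes of mitophagy and mitochondrial dynamics 7 and 6 fell and 1 rose on each diet. Of 12 carriers, porins and chaperones 9 and 10 fell and 1 rose. Over all genes 28.9% and 28.8% fell, and 27.8% and 30.3% rose.

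A few mitochondrial genes rose in KI. Of 6 genes for complex V assembly and inhibition 5 fell and 1 rose on control chow (28.9% and 27.8% of all genes). That one, Atpif1, the inhibitor peptide of ATP synthase, went from 6.26 to 12.0 CPM in WT control to 12.8 to 20.4 in KI control (0.76, SE 0.16, adjusted p 0.000183). On the ASK1i diet it was at 0.10 (SE 0.13, adjusted p 0.523), and the difference between the diets did not pass (-0.66, SE 0.21, adjusted p 0.453). Slc25a4, the ADP/ATP carrier of heart and muscle, rose by 1.33 and 1.11, from 4.99 to 7.42 CPM in WT control to 12.9 to 18.0 in KI control. Slc25a5, the carrier form abundant in liver, fell from 393 to 451 CPM to 268 to 363 (-0.39, adjusted p 0.00359). Ucp2, an inner-membrane carrier abundant in macrophages, rose by 1.60 and 1.37. Of 10 hypoxia-inducible genes 5 rose and 1 fell on each diet (27.8% and 30.3% of all genes rose), with Adm at 1.94 and 1.92 and the fall that of Pdk1, a kinase that restrains pyruvate oxidation (-1.26 and -1.28).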

How the data were processed

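Per the labels' protocols, RNA of fresh frozen liver was extracted with the Qiagen miRNeasy Mini Kit and made into Illumina TruSeq Stranded mRNA libraries. Reads were handled with STAR 2.4, RSEM 1.2.14 and CASAVA 1.8.2 and the build was mm10, per the submitters' processing notes; settings and annotation: not given in the sources used here. Each deposited value is an expected count of a gene in a library, as RSEM estimates it and without scaling. RSEM shares ambiguous reads among genes; 89 members had whole counts in every library, and Ndufa7, Ndufs5 and Cox7c did not, so these 3 are less certain. All columns were matched to samples by title. Within groups, no 2 columns were as close as repeat sequencing of 1 library would be (lowest chi-square per gene 27.6 over 128 pairs). Separate preparations of 1 liver cannot be seen this way, and pairs across groups were not checked.

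After rounding, edgeR 4.0.16 under R 4.3.3 gave the tests (two-sided quasi-likelihood F test, robust=TRUE, on TMM-scaled libraries after filterByExpr on the groups), with group, sex and title set (titles with or without P) in 1 model of 33 libraries. Adjusted p-values are Benjamini-Hochberg over 14934 genes, with a threshold of 0.05. The prior count was 0.125, and SE stands for the log2 fold change over the root of F. CPM uses TMM-scaled library sizes, and CPM per kb the median protein-coding transcript length, or the row's span on chrM. Counting error limits precision only for members with few counts (Cox7a1, Ndufa4l2, GU332589). Promoters came from the RefSeq table (GRCm38.p6).

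Members and lists were chosen with earlier results of these data known. Named by rule were every chrM row, the 3 smallest p of each complex in each genotype comparison, called members opposite to their complex, the tissue paralogues with their partners, called or leading members of the diet and interaction tests, leading genes of the other lists, and Tfam, Polrmt, Ppargc1a, Nnt, Cyc1 and Cycs. Other genes, the ratios and the promoter stretches were chosen after their values were seen. Alternatives were RLE, total counts, scaling without chrM, DESeq2 1.42.0, limma-voom (limma 3.58.1), other filters, group only, L code, replicate block, numbered titles, the 2 groups alone, each sex and each library left out.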

Additional observations from a re-analysis of the deposited data

Results flagged for a closer look

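In each of the 4 groups (5 to 10 libraries) the highest and lowest value of 8 shares of counts was checked for a gap to its neighbour that is large for the group's range. Of 32 group and share combinations 9 had such a gap, where chance gives about 1 in 20, and the shares of the complexes are not independent of each other. The library labelled KI ASK1i replicate 5 was the highest of its group in 6 of them. Its nuclear OXPHOS share was 1.11% (next 0.716%), and its shares were 0.285% for complex I (next 0.193%), 0.0999% for II (next 0.0578%), 0.126% for III (next 0.0816%), 0.168% for IV (next 0.115%) and 0.435% for V (next 0.271%). WT ASK1i replicate 6 was the highest of its group for complex I, at 0.317% (next 0.276%), and complex IV, at 0.187% (next 0.158%). WT control replicate 8 was the highest of its group for complex IV, at 0.158% (next 0.142%). All 9 gaps were at the upper end.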

How the results depend on the processing

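Called counts below are numbers of members past the threshold. On control chow, females alone leave 1 KI control library. Fewer of all genes passed in that fit too than in the main fit, so no conclusion is drawn from its nuclear count. With the L code in the model the chrM count on control chow went from 8 to 1, and in males alone to 5; the nuclear count there went from 74 to 28 in females alone. The WT diet count of 2 nuclear genes became 0 with total-count scaling, the L code, numbered titles only, females only or males only, 1 with a count sum of 10 as the one filter or with the replicate block, 5 with DESeq2 and 35 with the 2 groups alone. The log2 ratio of the chrM share (KI over WT) went from -0.643 to -0.0119 on control chow and from -0.698 to -0.00558 on the ASK1i diet when the share was taken of OXPHOS counts alone. The chrM rows hold medians of 89.6% to 90.8% of those counts by group, so that ratio must lie near 0 and bears on nothing; chrM counts per nuclear count had medians of 9.90 and 8.73 on control chow and 9.86 and 8.59 on the ASK1i diet. The other causes were not tested. Leaving out each of 33 libraries gave 68 to 74 nuclear and 8 to 9 chrM genes on control chow, 74 to 77 and 7 to 9 on the ASK1i diet, 0 to 20 nuclear genes for the diet in WT, and 0 for the other diet and interaction counts. No direction of a called result reversed. Total-count scaling moved the median of all genes on control chow to 0.10 and the nuclear median to -0.48. Same-numbered libraries deviated together in some pairs and not in others (37 pairs, correlations -0.208 to 0.361, 14 above 0.1, among them all 3 of replicate 1), so numbers were not taken as pairs; with the replicate block 71 nuclear and 8 chrM genes passed on control chow and 76 and 8 on the ASK1i diet. The interaction could not be fitted on 2 groups alone.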
